A study of Canis lupus familiaris with 24 samples.

Results

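*Ptf1a*, *Sox9* and *Hes1* are 3 of the 26 genes measured by RT-qPCR in this series of canine adipose-derived mesenchymal stem cells (cAD-MSCs), chosen by their gene symbols as the pancreatic progenitor and Notch-related genes. They have values in 8 of the 24 samples, on day 8, and 3 other genes were measured in those samples. The 8 samples come from 4 donor dogs with 1 cAD-MSC line each. Samples with the same number in their labels were read as undifferentiated cells and pancreatic endocrine (PE) cells of 1 line. The undifferentiated cells were kept in DMEM, with serum according to the study's methods. For the PE cells, a definitive endoderm stage of 3 days with Chir99021 and Activin A was followed by a PE stage of 5 days in serum-free medium as floating clusters, with taurine, FGF2, EGF and then DAPT, nicotinamide, dorsomorphin, a TGFβ inhibitor and retinoic acid. The labels name these factors without an order, and the study's methods for P.2.3, the protocol that these samples were read as, give FGF2 and EGF only in the first medium of the stage and DAPT only in the second. The serum, the culture form and the induction factors differ together between the groups and cannot be told apart. No gene was used here at day 8 solely as a marker of a mesenchymal, acinar or ductal cell type. The labelled stage was checked only against *Ptf1a*, *Sox9*, *Hnf6* and *Hnf4a*. *Ptf1a* also drives acinar genes and *Sox9* also leads cartilage formation, so these genes alone cannot tell a progenitor from such cells.

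*Ptf1a* encodes a basic helix-loop-helix (bHLH) factor that is needed to form the pancreas and later drives acinar genes. *Sox9* encodes an HMG-box factor that maintains multipotent pancreatic progenitors, and outside the pancreas it is the leading factor of cartilage formation, one of the fates of mesenchymal stem cells. *Hes1* encodes a bHLH repressor that is switched on by Notch signaling and that represses *Ngn3*, the gene that starts endocrine differentiation. DAPT blocks gamma-secretase, the protease that releases the active part of the Notch receptor.

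In PE cells, *Sox9* mRNA was about 7 times that of undifferentiated cells, *Ptf1a* rose from the limit of detection, and *Hes1* fell. The groups of 4 did not overlap for any of these 3 genes, which is the only outcome that gives p under 0.05 with 4 samples against 4 (exact two-sided Mann–Whitney U test, p = 0.0286). This count has little to be set against, since 5 of the 6 genes measured on day 8 (83.3%) had groups that did not overlap, 4 of them (66.7%) higher and 1 of them (16.7%), *Hes1*, lower in PE cells. With the mean Ct of the other day 8 genes as the reference in place of *Gapdh*, *Hes1* stayed lower without overlap, but the groups of *Ptf1a* and *Sox9* overlapped and *Sox9* was at 0.846 times the controls. For *Hes1* that reference holds *Hnf6*, *Hnf4a*, *Ptf1a* and *Sox9*, whose mean Ct moved by -5.84, -2.85, -2.465 and -2.01 cycles. A reference that moves earlier lowers *Hes1* by itself, so the kept call adds no support to its fall. The median relative expression was 6.94 for the 3 genes and 7.10 for all 6. In bulk RNA, more cells that express a gene and more mRNA per cell cannot be told apart.

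Relative mRNA expression stands for a gene's deposited ratio to *Gapdh*, the reference gene, set relative to the average ratio of the 4 undifferentiated samples. A threshold cycle (Ct) gives the point in the PCR where the signal crosses a set level, so a Ct that is 1 cycle earlier stands for a doubling of the template. The highest Ct in the tables is 40 cycles, although the labels give 45 cycles of PCR, and Ct values within 0.1 cycles of 40 are called at the limit of detection here.

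**Figure D1:**
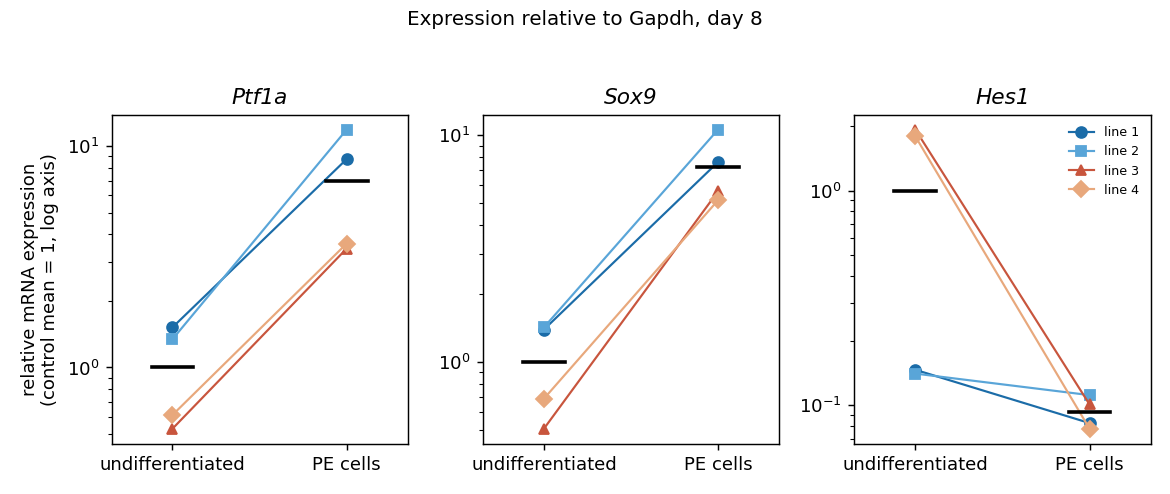
Relative mRNA expression (log axis, control mean of 1) of *Ptf1a*, *Sox9* and *Hes1* on day 8, in undifferentiated and in PE cells. Each line joins the samples of 1 cell line and black bars are the arithmetic means of 4 samples. *Hes1* controls of lines 3 and 4 lay at 1.92 and 1.79, far above those of lines 1 and 2 at 0.146 and 0.141.

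*Ptf1a* was at this limit in all 4 undifferentiated controls, with Ct values of 39.93, 39.90, 40 and 40 cycles in lines 1 to 4. PE cells had Ct values of 36.09 and 35.31 cycles in lines 1 and 2 and of 39.13 and 39.44 cycles in lines 3 and 4. All PE samples were earlier than all controls, but those of lines 3 and 4 were within 0.87 and 0.56 cycles of the limit.

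The relative mRNA expression of *Ptf1a* was 8.75 and 11.9 in PE cells of lines 1 and 2, and 3.45 and 3.63 in those of lines 3 and 4. The controls had 1.52, 1.34, 0.529 and 0.610 in the same order of lines. Since the controls were taken as at the limit, the mean of at least 6.94 ± 4.12 (SD, n = 4) is given as a lower bound, and the controls had 1 ± 0.503 (p = 0.0286 by the exact Mann–Whitney U test). The Benjamini-Hochberg adjusted p-value over the 6 genes of day 8 was 0.0343 (exact test). With the other day 8 genes as the reference this call was lost (1.51 times the controls, exact test, p = 1), a value that is no bound, since the controls of *Hnf6* in that reference were at the limit too.

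Line by line, the *Ptf1a* ratio of PE cells was at least 5.76, 8.87, 6.53 and 5.96 times that of the matching control. These 4 changes lay close together, at 2.74 ± 0.28 (SD, n = 4) on the log2 scale, while the changes in Ct did not. The Ct of *Ptf1a* moved by -3.84 and -4.59 cycles in lines 1 and 2 and by only -0.87 and -0.56 cycles in lines 3 and 4. Without a reference gene, PE cells of lines 3 and 4 therefore had at least 1.83 and 1.47 times the template of their controls, and those of lines 1 and 2 had at least 14.3 and 24.1 times.

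*Sox9* was well above the limit in every sample. The controls had Ct values of 30.33, 30.09, 30.33 and 30.09 cycles in lines 1 to 4, and PE cells had 27.69, 27.21, 28.69 and 29.21 cycles. PE cells were earlier in each line, most in lines 1 and 2.

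The deposited ratio of *Sox9* to *Gapdh* was 0.0174, 0.0178, 0.00634 and 0.00860 in the controls and 0.0953, 0.132, 0.0708 and 0.0647 in PE cells. The lowest PE sample was thus above the highest control, at a relative mRNA expression of 5.17 against 1.42. The means were 7.25 ± 2.46 and 1 ± 0.471 (SD, n = 4; exact Mann–Whitney U test, p = 0.0286), with an adjusted p-value of 0.0343 over the 6 genes. With the other day 8 genes as the reference this call was lost (0.846 times the controls, exact test, p = 0.486). Within the lines, *Sox9* was 5.49, 7.46, 11.2 and 7.52 times its own control. By Ct alone these values were 6.23, 7.36, 3.12 and 1.84, so that lines 3 and 4 moved from the larger changes to the smaller ones.

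The Ct values of *Sox9* repeated between lines. The controls of lines 1 and 3 were identical to 2 decimals, as were those of lines 2 and 4. In PE cells, line 3 was later than line 1 by 1 cycle and line 4 was later than line 2 by 2 cycles, again without a remainder. The ratios of these samples differed, because their *Gapdh* values did. With lines 1 and 2 alone the relative expression of *Sox9* was 6.49, and with lines 3 and 4 alone it was 9.06, each without overlap and without a test, since 2 samples against 2 cannot give an exact p-value below 0.333.

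*Hes1* had the earliest Ct of the 3 genes in the controls, 27.54, 27.31, 26.35 and 26.57 cycles in lines 1 to 4. In PE cells its Ct was nearly the same in all lines, 29.20, 29.17, 29.24 and 29.29 cycles. The Ct thus moved later in each line, by 1.66, 1.86, 2.89 and 2.72 cycles, and by 2.28 ± 0.613 cycles in the mean (SD, n = 4). By Ct alone, PE cells had 0.316, 0.275, 0.135 and 0.152 times the *Hes1* template of their own controls.

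**Figure D2:**
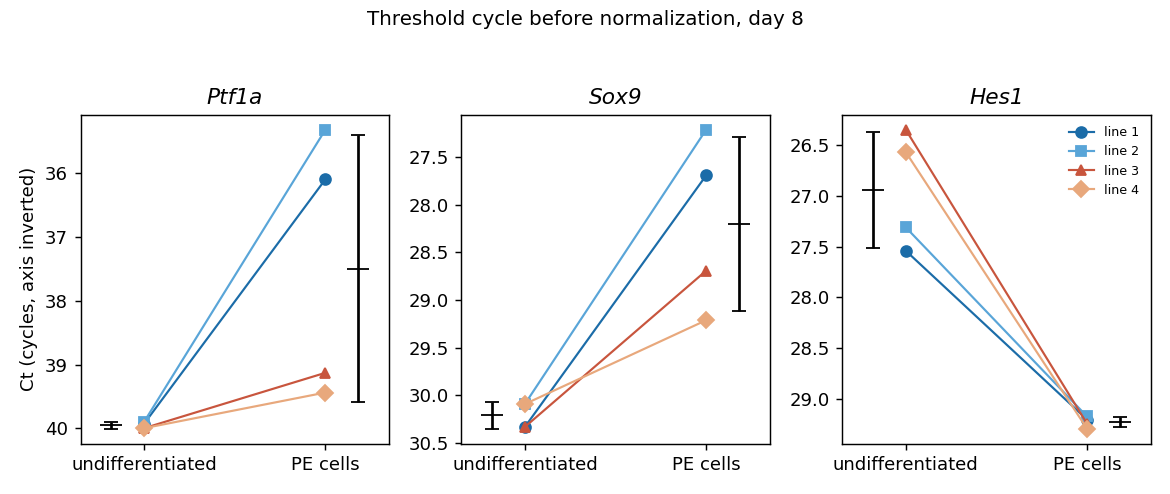
Ct in cycles (axis inverted, so that more template is higher) of the 3 genes on day 8, before any normalization. Lines join the samples of a cell line, and black bars beside them are the mean ± SD of 4 samples. *Ptf1a* in lines 3 and 4 stayed within 1 cycle of the limit of 40, and the PE samples of *Hes1* spanned only 0.120 cycles.

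Relative to *Gapdh*, the fall of *Hes1* was uneven between the lines. The deposited ratio was 0.0614, 0.0590, 0.807 and 0.750 in the 4 controls, a range of 13.7 times, although their Ct values spanned only 1.19 cycles or 2.28 times. In PE cells it was 0.0347, 0.0468, 0.0424 and 0.0326. Every PE sample was below every control, with a mean relative expression of 0.0933 ± 0.0158 against 1 ± 0.991 (SD, n = 4; exact Mann–Whitney U test, p = 0.0286; adjusted over the 6 genes, 0.0343).

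The highest PE sample and the lowest control of *Hes1*, both of line 2, were close to each other at 0.112 and 0.141. Within the lines, PE cells had 0.565 and 0.794 times the control in lines 1 and 2 and 0.0525 and 0.0435 times in lines 3 and 4. The arithmetic mean of the controls was therefore set mainly by lines 3 and 4, and with geometric means *Hes1* was 0.179 times the controls. In limma on the log2 ratios of the 6 genes, the adjusted p-value of *Hes1* was 0.0384 without the cell line as a factor and 0.0506 with it. For *Ptf1a* and *Sox9*, limma gave adjusted p-values of 0.00385 and 0.0012 without the cell line, and of 0.00011 and 0.000154 with it. The fit of *Ptf1a* with the cell line rests on the small spread of its ratio changes, with an SD of 0.283 on the log2 scale. By Ct, the SD of the *Ptf1a* changes was 2.05 cycles, and its controls were at the limit. The ratio of *Hes1* in the control of line 2 equals, to 7 decimals, a ratio listed 3 times for *Hnf4a*. Without that control, *Hes1* was 0.0725 times the controls and the groups still did not overlap (exact test, p = 0.0571, the smallest possible with 3 samples against 4).

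The *Gapdh* Ct behind each ratio was recovered by adding log2 of the ratio to the gene's Ct. *Sox9*, *Hnf6* and 1 further gene shared their *Gapdh* values within 0.1 cycles, whereas *Ptf1a* and *Hes1* did not share them in all samples. In this shared set, the *Gapdh* Ct of lines 1 to 4 was 24.49, 24.27, 23.03 and 23.23 cycles in the undifferentiated controls, and 24.30, 24.29, 24.87 and 25.25 cycles in PE cells. It was therefore almost constant in lines 1 and 2 and later in PE cells by 1.84 and 2.02 cycles in lines 3 and 4 (groups compared with the exact two-sided permutation test, p = 0.114).

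*Ptf1a* had the same *Gapdh* Ct as the shared set, within 0.1 cycles, in 6 of the 8 samples, but 23.17 and 22.83 cycles in PE cells of lines 1 and 2. For *Hes1*, the controls had 23.51, 23.23, 26.04 and 26.15 cycles and PE cells had 24.35, 24.75, 24.68 and 24.35 cycles. The *Gapdh* value of *Hes1* moved later in lines 1 and 2, by 0.84 and 1.53 cycles, and earlier by more than 1 cycle in lines 3 and 4, while in the shared set lines 3 and 4 moved the other way. Whether separate cDNA or plates were used for these genes is not given in the sources used here.

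**Figure D3:**
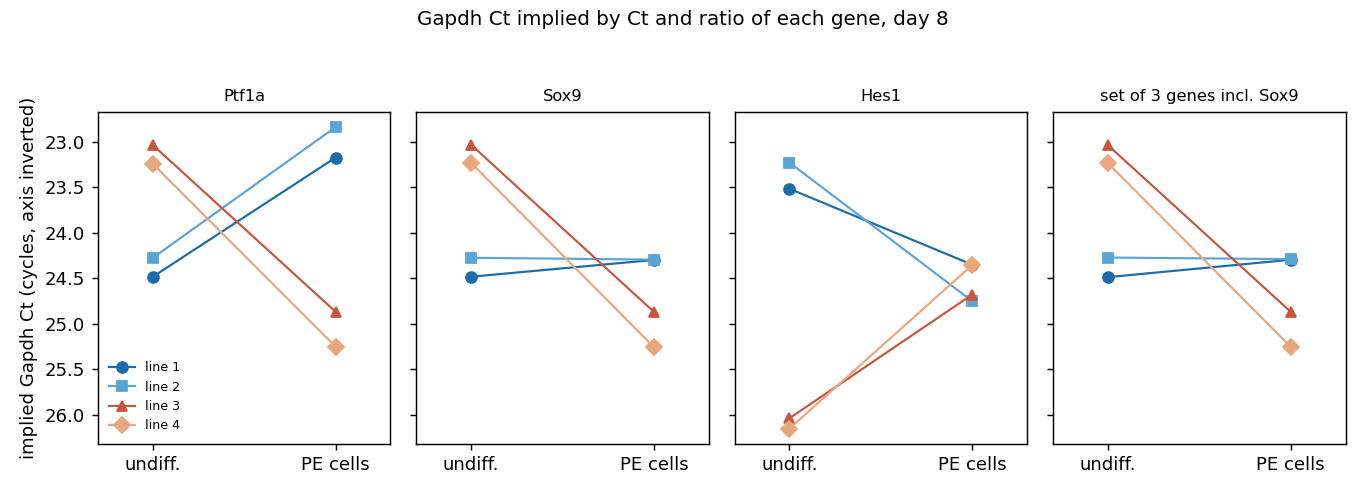
*Gapdh* Ct in cycles (axis inverted) recovered from Ct and deposited ratio for *Ptf1a*, *Sox9*, *Hes1* and the set of 3 genes that share it. Lines join the samples of a cell line. The controls of lines 3 and 4 are the earliest in the shared set, at 23.03 and 23.23 cycles, and the latest for *Hes1*, at 26.04 and 26.15 cycles.

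With the shared *Gapdh* Ct used for every gene, *Ptf1a* was at least 12.5 and 24.4 times the control in lines 1 and 2, and at least 6.52 and 5.99 times in lines 3 and 4. *Hes1* was 0.277 and 0.279 times the control in lines 1 and 2 and 0.481 and 0.617 times in lines 3 and 4. The lines with the larger fall of *Hes1* were thus lines 3 and 4 with the deposited ratios and lines 1 and 2 with the shared *Gapdh*. *Sox9*, which belongs to the set, kept its values. As the mean of the PE samples over the mean of the controls, the values were at least 14.7 for *Ptf1a*, 7.23 for *Sox9* and 0.400 for *Hes1*, and the groups did not overlap for any of them (exact Mann–Whitney U test, p = 0.0286 each).

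**Figure D4:**
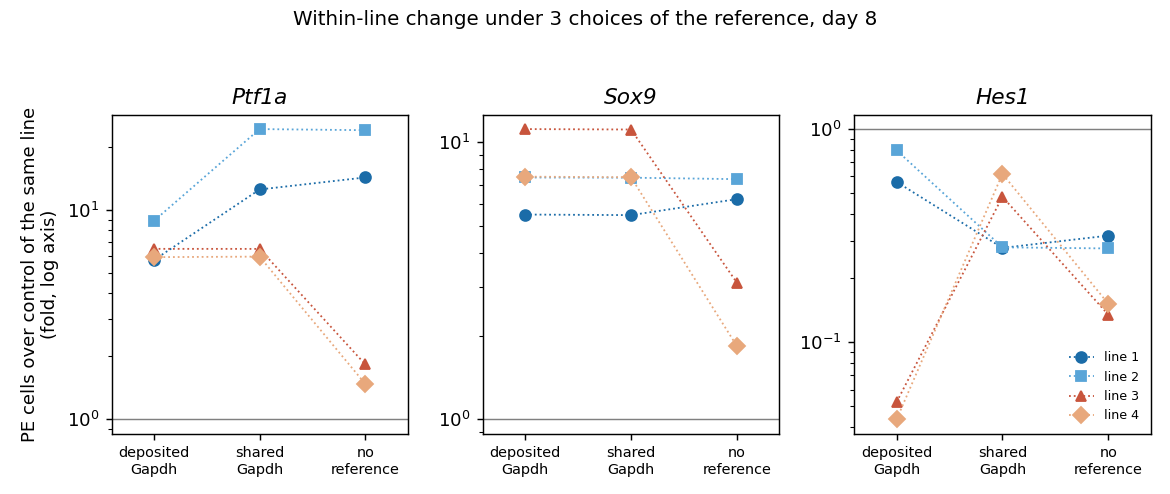
Fold of PE cells over the control of the same line (log axis, the grey line marks 1) for 3 choices of the reference, namely the *Gapdh* value behind each deposited ratio, the *Gapdh* value shared by 3 genes, and none. Points are single cell lines. *Ptf1a* and *Sox9* stayed above 1 and *Hes1* below 1 in all 4 lines under each choice, from 0.0435 to 0.794 for *Hes1*.

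Before division by *Gapdh*, the groups also did not overlap in Ct for *Ptf1a*, *Sox9* and *Hes1* (exact Mann–Whitney U test, p = 0.0286 each), beside 4 of the 6 genes of day 8 (66.7%). Of all 6, 3 (50%) were earlier, among them *Ptf1a* and *Sox9*, and 1 (16.7%), *Hes1*, was later. With the other day 8 genes as the reference, under which the calls of *Ptf1a* and *Sox9* were lost, *Hes1* was 0.0286 times the controls. That reference holds *Hnf6* for each of the 3 genes, and the Ct of *Hnf6* moved by -5.84 cycles. For *Hes1* it also holds *Hnf4a*, *Ptf1a* and *Sox9*, which moved earlier too, so the low value of *Hes1* there adds no support to its fall.

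A Ct difference between 2 genes of the same sample needs no reference gene, if both were read from the same cDNA. The Ct of *Hes1* minus that of *Sox9* was -2.79, -2.78, -3.98 and -3.52 cycles in the controls and 1.51, 1.96, 0.55 and 0.08 cycles in PE cells. Its sign changed in all 4 lines. The shift was 4.29 ± 0.248 cycles (SE, n = 4 lines), from 3.60 to 4.74 cycles (exact Mann–Whitney U test, p = 0.0286), a change of 19.6 times in the relation of *Sox9* to *Hes1*. From the deposited ratios, each with its own *Gapdh* value, the same shift was 5.42 on the log2 scale. The *Gapdh* Ct behind *Hes1* and *Sox9* differed in the same samples, with 26.04 and 23.03 cycles in the control of line 3, and whether both genes were read from the same cDNA was not tested. Adjusted over all 15 pairs of day 8 genes the p-value was 0.0714 (exact test), so it did not pass the adjustment, and 6 of the 15 pairs (40%) had groups that did not overlap.

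The Ct of *Hes1* minus that of *Ptf1a* moved from -13.0 ± 0.618 to -8.27 ± 2.05 cycles (SD, n = 4; exact test, p = 0.0286, adjusted 0.0714), a shift of at least 4.75 cycles because of the *Ptf1a* controls. The size differed between the lines, with 5.50, 6.45, 3.76 and 3.28 cycles in lines 1 to 4.

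For *Ptf1a* minus *Sox9*, the difference was 9.60, 9.81, 9.67 and 9.91 cycles in the controls and 8.40, 8.10, 10.44 and 10.23 cycles in PE cells. The groups overlapped (exact test, p = 1). Lines 1 and 2 moved by -1.20 and -1.71 cycles, lines 3 and 4 by 0.77 and 0.32 cycles. The control values are read as lower limits of the true difference, since the *Ptf1a* controls were taken as at the limit, and a gain of *Ptf1a* over *Sox9* was not detectable in lines 3 and 4.

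**Figure D5:**
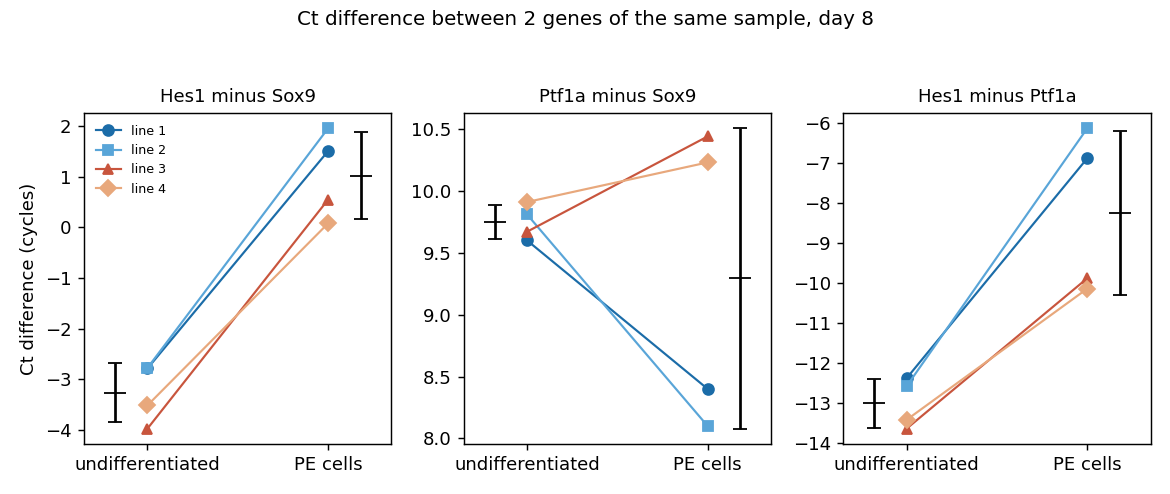
Ct differences in cycles between 2 genes of the same sample, on day 8, in undifferentiated and in PE cells. Lines join the samples of a cell line, and black bars are the mean ± SD of 4 samples. *Hes1* minus *Sox9* rose from below 0 to above 0 in all 4 lines, whereas *Ptf1a* minus *Sox9* fell in lines 1 and 2 and rose in lines 3 and 4. The *Ptf1a* controls were taken as at the limit, so the control values of *Ptf1a* minus *Sox9* are lower limits. The true direction in lines 3 and 4 is therefore not known.

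Of the posterior foregut factors measured in the same samples, *Hnf6* was higher in PE cells, at least 99.6 ± 20.5 times the controls (SD, n = 4; exact test, p = 0.0286), and *Hnf4a*, at 1.84 ± 1.72, overlapped with them (exact test, p = 0.486). In limma, *Hnf4a* had an adjusted p-value of 0.176 without the cell line as a factor and 0.0313 with it. Its ratio in PE cells was 1 to 16.1 times that of the control of the same line. The *Hnf4a* ratio was the same, 0.0590, in the control of line 2 and in PE cells of lines 1 and 2. Their Ct values differed, at 30.03, 26.76 and 25.87 cycles. By Ct, *Hnf4a* was earlier in PE cells of each line, at -2.85 cycles in the mean, and the groups overlapped (exact test, p = 0.343). Over the 8 samples, the log2 ratios of *Ptf1a* and *Sox9* were most like each other among the genes named here, with a Pearson's r of 0.980, and *Sox9* and *Hnf6* had 0.976. *Hes1* had negative values with the other 4 genes, from -0.850 with *Hnf4a* to -0.772 with *Hnf6*. These values describe 8 samples in separate groups that share donors, and those with *Hnf4a* include its repeated ratio. *Sox9* and *Hnf6* also share the *Gapdh* measurement in all samples, and *Ptf1a* shares it with them in 6 of the 8.

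The endocrine genes that follow *Hes1* and *Sox9* in pancreas development were not analysed here on day 8. On day 13, in insulin-producing cells against their own undifferentiated controls, 5 of 5 endocrine factors (*Ngn3*, *NeuroD1*, *Nkx2.2*, *Nkx6.1* and *Isl1*) were higher relative to *Gapdh* without overlap, beside 11 of all 13 genes of that day (84.6%). By Ct alone, *NeuroD1* was earlier without overlap, at -4.89 cycles, whereas *Nkx6.1* and *Isl1* were later without overlap, by 2.10 and 3.44 cycles, and *Nkx2.2* was later by 0.82 cycles with overlap (exact test, p = 0.0571). *Ngn3*, the target that *Hes1* represses, was at 44.8 ± 7.13 (SD, n = 4; exact Mann–Whitney U test, p = 0.0286), with a Ct that overlapped between the groups (34.5 ± 0.794 and 34.0 ± 0.237 cycles). *Hes1*, *Sox9* and *Ptf1a* were not analysed here on day 13.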

How the data were processed

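RNA of 4 cAD-MSC lines was extracted with TRIzol and Direct-zol, reverse transcribed with ImProm-II and amplified with SYBR Green, per the labels. The authors deposited Ct values as a score in cycles, not normalized, and the deposited linear ratio to *Gapdh* (2 to the power of −ΔCt, 7 decimals). A deposited table of fold changes holds only the authors' own comparisons and was not used. Replicate wells, amplification efficiency and the threshold setting are not given in the sources used here, and Ct values have no counted depth, so the number of lines limits the precision.

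Samples were grouped by their labels. Ratios were divided by the mean of the 4 day 8 controls. Groups were compared with exact two-sided Mann–Whitney U tests, the test that the study's methods name for a pair of groups, and a difference was called where the groups did not overlap. P-values were adjusted by Benjamini-Hochberg over the 6 genes of day 8. The *Gapdh* Ct was calculated as Ct plus log2 of the ratio, and genes within 0.1 cycles in all samples were taken as a set. Samples were paired as lines by the number in their labels, and the deviations of paired samples from their group means had a Pearson's r of 0.783 to 0.861 over 6 genes. Samples with different numbers were not correlated, so these values cannot show that a pair comes from 1 donor. The smallest exact p-value of a sign-flip test on 4 differences is 0.125. The genes named are *Ptf1a*, *Sox9* and *Hes1*, the posterior foregut list and the endocrine list. The genes, lists and tests were chosen with earlier results of these data known. Python 3.11.15, numpy 2.4.6, scipy 1.17.1, matplotlib 3.10.9, R 4.3.3 and limma 3.58.1 were used. The exact Mann–Whitney U test, the permutation test and limma were also run on simulated data, and the sign-flip test only on a set of equal changes.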

Additional observations from a re-analysis of the deposited data

How the results depend on the processing

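The direction and the call of *Hes1* (lower) and of the Ct differences *Hes1* minus *Sox9* and *Hes1* minus *Ptf1a* were kept under the other alternatives tried, except that limma with the replicate block (the cell line) gave *Hes1* 0.179 times the controls with an adjusted p-value of 0.0506. In limma, the block ended no other call of these genes. The exact sign-flip test on the changes within the lines gave p = 0.125 for *Ptf1a*, *Sox9*, *Hes1* and each of these Ct differences. This is its smallest possible value, so this test could call none of them. The calls of the Ct differences stand for groups without overlap, and their adjusted p-value was 0.0714 (exact Mann–Whitney U test). In lines 1 and 2 alone *Hes1* was 0.677 and in lines 3 and 4 alone 0.0482 times the controls. With the mean Ct of the other day 8 genes as the reference, *Sox9* turned to 0.846 and *Ptf1a* overlapped at 1.51, so that 0 of the 3 genes and 1 of all 6 were higher without overlap. The cause of these changes was not tested. *Hes1* kept its call there, but its reference holds genes whose Ct moved earlier in PE cells, so that call adds no support. Leaving out genes with a mean Ct of 35 or later in both groups removed *Ptf1a* and a further gene that had been called higher. The number higher without overlap fell from 2 to 1 among the 3 genes and from 4 to 2 among all genes of day 8. The Ct difference *Ptf1a* minus *Sox9*, which was not called, turned from -0.46 to 0.20 with the deposited ratios. Leaving out each line in turn gave 5.96 to 7.65 for *Ptf1a*, 6.69 to 8.19 for *Sox9* and 0.0678 to 0.133 for *Hes1*, without overlap, although 3 against 3 cannot give an exact p-value below 0.1. By raw Ct without a reference, the PE mean over the control mean was 10.7 for *Ptf1a*, 4.63 for *Sox9* and 0.194 for *Hes1*. With 1.8-fold instead of 2-fold amplification per cycle the values were 5.14, 5.40 and 0.142. Adjustment over all 26 genes of the series gave 0.0371 for each (exact test). Every other fold of *Ptf1a* here is given as a lower bound, since its 4 controls were taken as at the limit.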

Other observations

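Of the 312 pairs of lines within a gene and group in the whole series, 10 had the same Ct to 2 decimals, 3 of them at the limit of 40 cycles. Of the 7 others, 2 were the *Sox9* controls of day 8. *Hes1* had the most even Ct of the 3 genes in PE cells, with an SD of 0.052 cycles over the 4 lines, whereas the SD of *Ptf1a* was 2.10 and that of *Sox9* 0.913 cycles. In the controls the order was the reverse, with 0.572 cycles for *Hes1*, 0.139 for *Sox9* and 0.051 for *Ptf1a*, whose controls were all at the limit. These differences in spread were not tested.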
